A study of Canis lupus familiaris with 24 samples.

Results

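The nuclear genes for subunits of the oxidative phosphorylation complexes were described across the libraries of a dog kidney epithelial line. The members were the protein-coding genes with at least 10 counts in at least 3 libraries whose symbol was NDUFA, NDUFB, NDUFC, NDUFS or NDUFV followed by a digit, SDHA, SDHB, SDHC or SDHD, or began with UQCR, with ATP5 or with COX and a digit from 4 to 8. They were 47 of the 32704 genes in the table. Of these, 27 belonged by symbol to complex I, 3 to complex II, 5 to complex III, 5 to complex IV and 7 to the ATP synthase. The symbol pattern matched 50 genes, and the 3 that were too low were COX4I2, COX6A2 and COX7A1, complex IV isoforms known from lung and muscle, with 32, 4 and 37 counts in all 24 libraries. Just inside the threshold, ATP5MD had 200 counts in all and NDUFA4L2 had 222. A further filter on low counts kept 46 of the 47 members among 12466 genes tested. The member it left out was ATP5MD, a small subunit of the ATP synthase at 0.288 to 0.959 CPM, a library's counts scaled to a common total with TMM, a correction for library composition.

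Oxidative phosphorylation takes place at the inner mitochondrial membrane. Complex I takes electrons from NADH and complex II takes them from succinate; both pass them to ubiquinone, complex III passes them on to cytochrome c, and complex IV passes them to oxygen. Complexes I, III and IV pump protons, and the ATP synthase uses the return flow of protons to make ATP. Most subunits are nuclear, while a core set is made from mitochondrial DNA, so that the complexes other than complex II draw on both genomes. Kidney tubule epithelium is known for its high use of this pathway in transport.

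RNA was measured by sequencing in MDCK cells, established from dog kidney, as the lines MDCK-NBL2 and MDCK-II. The MDCK-NBL2 groups were TGFb for 4 days with an siRNA to PRRX1 (siPRRX1), TGFb for 4 days with a control siRNA (siCTR), TGFb for 4 days alone, no treatment at day 4 and no treatment at day 0. The MDCK-II groups were TGFb for 4 days, no treatment at day 4 and no treatment at day 0. TGFb drives epithelial cells toward a mesenchymal state (EMT), PRRX1 is a transcription factor tied to that change, and the labels give TGFb-treated MDCK-NBL2 as full EMT, treated MDCK-II and siPRRX1 cells as partial EMT and the untreated cells as epithelial. Each group had 3 libraries. The labels do not say that the 3 came from separate cultures, so the p-values speak of the spread among these 3 libraries per group, which may be technical, and in bulk RNA fewer cells of a type and less RNA per cell cannot be told apart. Each of MDCK-NBL2 and MDCK-II is a single line.

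The libraries held 6134929 to 27567296 counts. The epithelial genes CDH1 and EPCAM were present in every library, at 727 CPM or more and at 179 CPM or more. The summed level of 6 kidney epithelium markers was 1269 to 1389 CPM in TGFb-treated MDCK-NBL2, against 1857 to 2888 CPM in untreated MDCK-NBL2 at day 4, and it was 1638 to 1831 CPM in TGFb-treated MDCK-II, against 1713 to 2259 CPM in untreated MDCK-II at day 4. Of these 6, 0 rose and 4 fell with TGFb in MDCK-NBL2 (66.7%, against 44.3% of all genes). Their log2 fold changes there were -7.15 to -0.04. In MDCK-II 0 rose and 1 fell (16.7%, against 21.1%), with changes of -3.70 to 0.32. These calls are at an adjusted p under 0.05 by the edgeR test described below. Of 5 fibroblast markers, COL1A2 held nearly all of the sum, which was 1026 to 2821 CPM in TGFb-treated MDCK-NBL2 and at most 0.361 CPM in any MDCK-II library; PDGFRB was at or under 0.0693 CPM and DCN at or under 0.265 CPM in every library. Their part in the subunit values was not tested. Some libraries stood apart from their group. Untreated MDCK-NBL2 day 4 replicate 2 had 232 CPM of COL1A2, against 15 and 32.4 CPM in replicates 1 and 3. Along the main axis of variation over all tested genes (60.8% of the variance), replicate 2 lay at 46.5. Replicates 1 and 3 lay at -10.5 and -28.2, and the TGFb-treated MDCK-NBL2 libraries at 67.1 to 78.8. Untreated MDCK-NBL2 day 0 replicate 1 also stood apart, with 68.3 CPM of COL1A2 and 7.07 CPM of PRRX1. Counts of subunits called without either of them are given with each comparison they moved, while the calls on other genes of the pathway are given with all libraries only.

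The subunits varied little between the 8 groups. In 43 of the 46 tested members, the highest group mean was under 2 times the lowest, which was 93.5% of them, against 39.0% of all genes tested. Among genes with a mean of at least 10 CPM the shares were 95.5% of 44 members and 48.1% of all genes. The median fold between the highest and lowest group was 1.48 for the members and 2.33 for all genes, and the median coefficient of variation within groups was 6.66% and 12%. COX4I1, the common isoform of a complex IV subunit, and NDUFS6, an accessory zinc-binding subunit of complex I, moved least, with folds of 1.12 and 1.11 between their extreme groups. COX4I1 lay between 141 and 175 CPM in all 24 libraries.

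The members at the other end were few. NDUFA4L2, a paralog of the complex IV protein NDUFA4 that is named after complex I, was at 0 in all 9 MDCK-II libraries, so that no fold could be formed over all groups. ATP5F1D, the delta subunit in the rotating stalk of the ATP synthase, had a fold of 2.25 between untreated MDCK-II at day 4 and TGFb-treated MDCK-NBL2. NDUFV1, the complex I subunit that binds NADH and carries flavin, had a fold of 2.01 between untreated MDCK-II at day 4 and siCTR cells. NDUFA2, an accessory complex I subunit with low counts here, came next with 1.89.

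**Figure D1:**
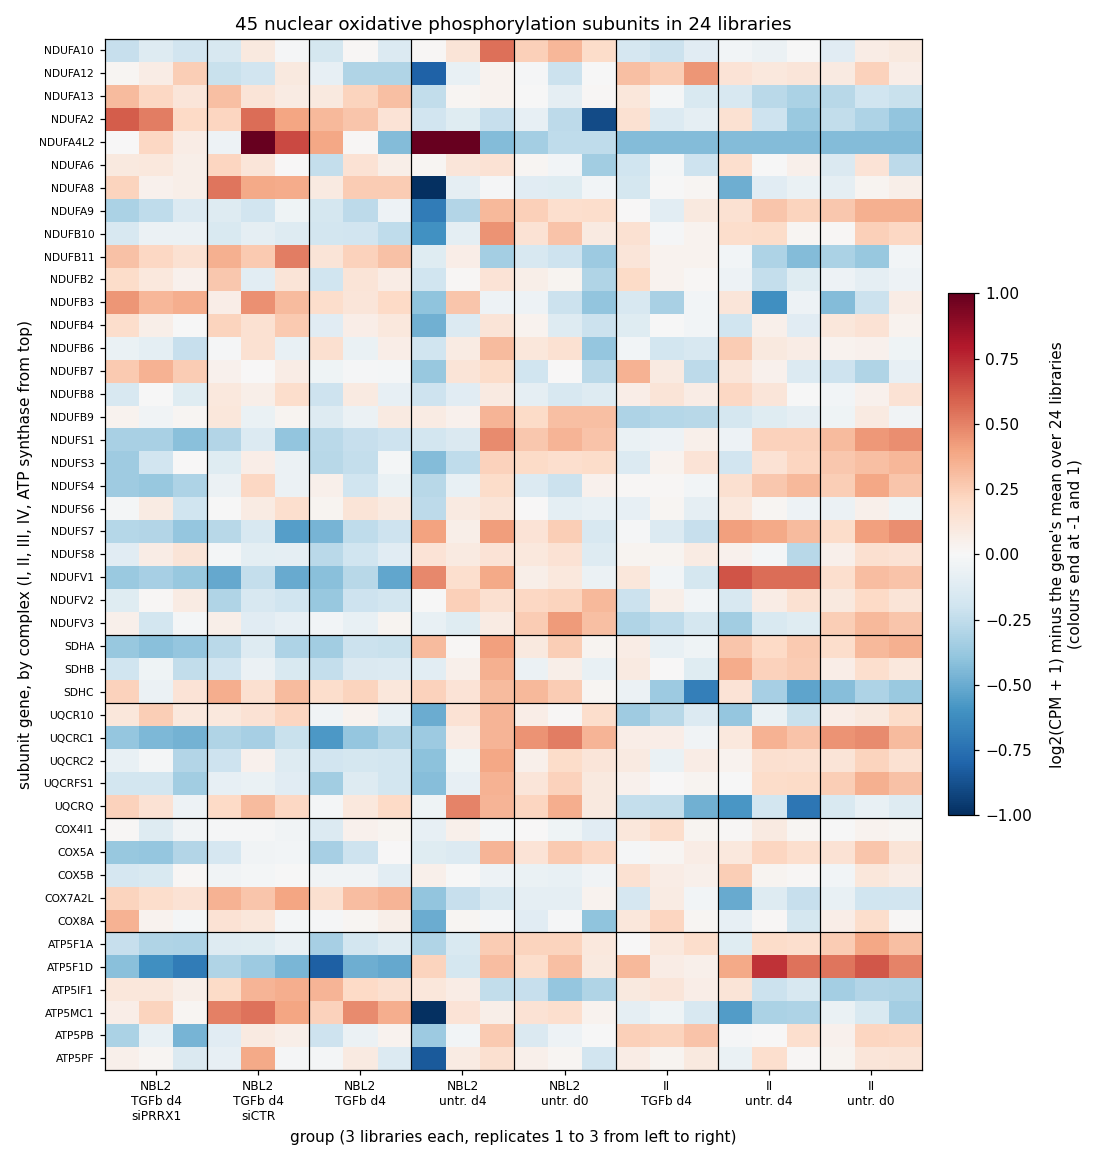
Level of each of 45 tested subunits (rows, by complex) in each of the 24 libraries (columns, by group), as log2(CPM + 1) minus that gene's mean over the libraries, with colours ending at plus and minus 1. Most rows are pale across all groups, and rows such as NDUFV1 and ATP5F1D are darker toward low values in the TGFb-treated MDCK-NBL2 libraries, where their group means were 72.2 and 46.2 CPM.

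In TMM-scaled CPM, the summed level of the 47 members fell within a narrow band. It averaged 3274 ± 69.0 CPM in siPRRX1 cells, 3547 ± 58.9 CPM in siCTR cells, 3348 ± 154 CPM in TGFb-treated MDCK-NBL2, 3634 ± 538 CPM in untreated MDCK-NBL2 at day 4 and 3841 ± 114 CPM at day 0 (SD, n = 3 each). In MDCK-II it averaged 3603 ± 15.5 CPM with TGFb, 3727 ± 125 CPM untreated at day 4 and 3972 ± 131 CPM at day 0 (SD, n = 3 each). The untreated MDCK-NBL2 libraries at day 4 were the most spread, at 3168, 3512 and 4222 CPM, and their range took in all 3 treated libraries (3170, 3424 and 3449 CPM). As a share of raw counts, without TMM, the members held 0.329%, 0.345% and 0.459% in those untreated libraries. In the treated libraries they held 0.269%, 0.299% and 0.309%, so the groups did not overlap on that scale. Replicate 1 of untreated MDCK-NBL2 at day 4 was the lowest of all 24 libraries in CPM for 14 of the 46 tested members, and replicate 3 was the highest for 10.

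**Figure D2:**
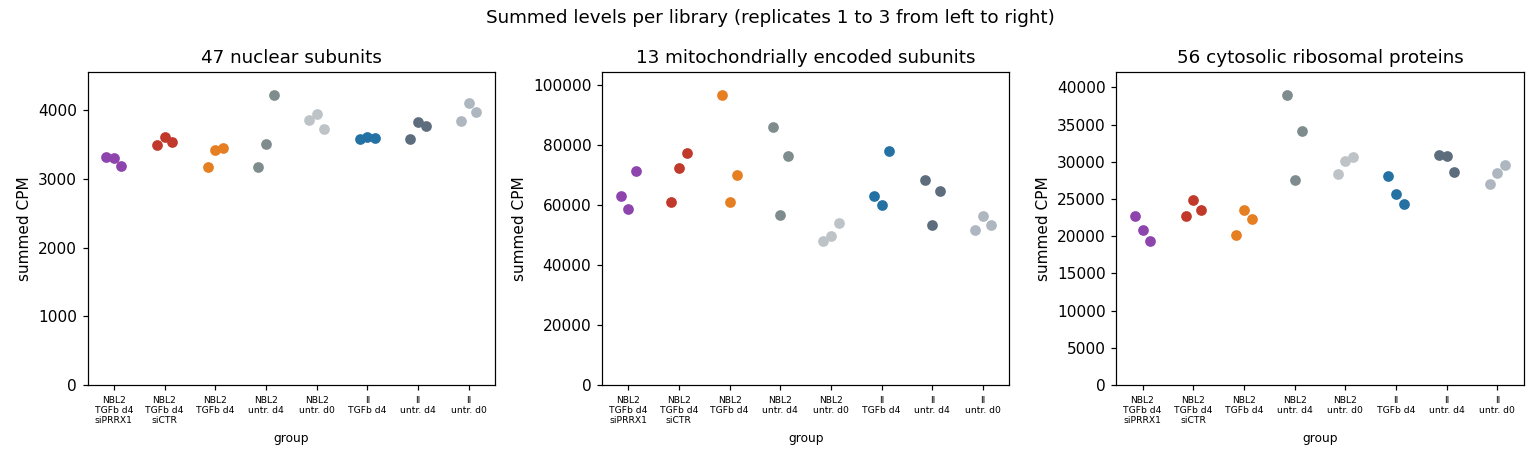
Summed CPM per library of the 47 nuclear subunits, of the 13 mitochondrially encoded subunits and of 56 cytosolic ribosomal protein genes, by group, with 1 point per library. The nuclear sum, in TMM-scaled CPM, lies between 3168 and 4222 CPM in all libraries, and both of these ends are untreated MDCK-NBL2 libraries of day 4.

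The first question was what TGFb did in MDCK-NBL2, the line in which it gives full EMT. Of the 46 tested subunits, 5 rose and 10 fell (32.6%) over untreated cells of day 4, against 44.3% of all genes tested (21% up and 23.4% down), by edgeR's quasi-likelihood test with Benjamini-Hochberg adjustment over 12466 genes and a call at an adjusted p under 0.05. The share of members called was below that of all genes. The median log2 fold change was -0.06 over the members and -0.04 over all genes. By complex, 3 rose and 6 fell in complex I, 0 rose and 2 fell in complex II, 0 rose and 1 fell in complex III, 1 rose and 0 fell in complex IV, and 1 rose and 1 fell in the ATP synthase.

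The calls in complex I that fell lay mostly among subunits of the electron path, here the 7 nuclear core subunits. Of these 7, 0 rose and 5 fell, and of 20 accessory subunits 3 rose and 1 fell. Over all genes 21% rose and 23.4% fell. NDUFV1, where electrons from NADH enter, had 71.6, 78.8 and 66.3 CPM in TGFb-treated MDCK-NBL2, against 134, 108 and 125 CPM in untreated cells. The groups did not overlap, and NDUFV1 fell by 0.76 ± 0.10 (log2 fold change ± SE, adjusted p = 4.07e-05). NDUFS7, the iron-sulfur subunit next to the ubiquinone site, had 19.8, 23.0 and 23.7 CPM in treated cells, against 36.8, 28.8 and 37.2 CPM in untreated cells, a log2 fold change of -0.62 ± 0.13 (adjusted p = 0.00115). Its lowest untreated value was that of replicate 2. NDUFV2, an iron-sulfur partner of NDUFV1, had 85.9, 97.0 and 98.8 CPM with TGFb, against 112, 132 and 125 CPM without it, and fell by 0.39 ± 0.10 (adjusted p = 0.00459). These 3 kept their call in all 7 fits that each left out 1 library. In a fit of the compared groups alone, which called 4.48% of all genes, NDUFV1 passed (0.0492), while NDUFS7 (0.0709) and NDUFV2 (0.116) did not.

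NDUFS8, which carries iron-sulfur clusters between NDUFS1 and NDUFS7, had 39.9, 42.0 and 44.5 CPM in treated cells and 53.2, 51.4 and 53.1 CPM in untreated cells, with no overlap (log2 fold change -0.32, adjusted p = 0.0125). NDUFA10, an accessory subunit of the membrane arm, fell by 0.35 (adjusted p = 0.0177) and had 67.0, 76.1 and 68.5 CPM with TGFb, against 76.5, 82.8 and 111 CPM without it.

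The accessory subunits that rose each lost their call when some single libraries were left out. NDUFA8, on the intermembrane face of complex I, had 106, 119 and 119 CPM in TGFb-treated MDCK-NBL2, against 48.2, 93.4 and 99.1 CPM in untreated cells (log2 fold change 0.52 ± 0.18, adjusted p = 0.0232). The treated libraries were all higher, and untreated replicate 1 was far below the other untreated libraries. Without that replicate the change was 0.25 (adjusted p = 0.0950), and the call was also lost without treated replicate 2 (0.0663) or treated replicate 3 (0.0654). NDUFA13, a subunit also known as GRIM-19, had a log2 fold change of 0.27 (adjusted p = 0.0317), which did not pass without untreated replicate 1 (0.169) or treated replicates 2 (0.0801) or 3 (0.130). NDUFB11, a small membrane-arm subunit, had 28.2, 30.2 and 31.7 CPM, against 23.4, 26.9 and 20.1 CPM in untreated cells (log2 fold change 0.35, adjusted p = 0.0337). Its call was lost without untreated replicate 1 (0.0765), untreated replicate 3 (0.137), treated replicate 2 (0.0761) or treated replicate 3 (0.108).

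In complex II, SDHA, the flavoprotein that oxidises succinate in both the respiratory chain and the tricarboxylic acid cycle, fell in treated MDCK-NBL2. It had 130, 142 and 142 CPM with TGFb and 205, 167 and 219 CPM without it, and the groups were apart (log2 fold change -0.51 ± 0.10, adjusted p = 0.000479), though the call was lost in the fit of the compared groups alone (0.0896). The iron-sulfur subunit SDHB had 72.5, 77.4 and 78.2 CPM with TGFb, against 79.7, 88.9 and 110 CPM without it (-0.29 ± 0.10, adjusted p = 0.0293). The SDHB call rested on untreated replicate 3 and did not pass without it (0.201), nor without treated replicate 1 (0.0984) or 2 (0.0558). In complex III, UQCRC1, a core protein on the matrix side, had 75.8, 86.4 and 91.5 CPM with TGFb, against 87.8, 119 and 143 CPM without it. The groups overlapped at untreated replicate 1, and the fall of 0.46 ± 0.13 (adjusted p = 0.00671) did not pass without untreated replicate 3 (0.0540).

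COX7A2L, which joins complexes III and IV into supercomplexes, was the complex IV member that rose. It had 120, 134 and 136 CPM in TGFb-treated MDCK-NBL2, against 82.0, 91.6 and 96.5 CPM in untreated cells, and every treated library was above every untreated one. Its log2 fold change of 0.53 ± 0.10 (adjusted p = 0.000385) kept its call in all 7 fits without 1 library but did not pass in the fit of the compared groups alone (0.0754). The common complex IV isoforms did not pass, with COX4I1 at -0.01 (adjusted p = 0.953) and COX8A, the smallest subunit, at 0.17 (adjusted p = 0.304). With library totals in place of TMM COX4I1 was at -0.25 (adjusted p = 0.0156).

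In the ATP synthase, the stalk subunit ATP5F1D had 39.5, 49.9 and 49.0 CPM with TGFb, against 82.4, 62.1 and 87.5 CPM in untreated MDCK-NBL2. It fell by 0.74 ± 0.13 (adjusted p = 0.000296) with no overlap and kept its call in all 7 fits without 1 library, though not in the fit of the compared groups alone (0.0606). ATP5MC1, 1 of the genes for the proton-carrying c ring, had 106, 125 and 116 CPM with TGFb and 35.0, 98.8 and 93.7 CPM without it. Untreated replicate 1 was again low, and the log2 fold change of 0.61 ± 0.23 (adjusted p = 0.0366) became 0.26 (adjusted p = 0.0683) without it. The ATP5MC1 call was also lost without treated replicate 1 (0.0517), 2 (0.105) or 3 (0.0762).

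Which members were counted thus depended on single libraries of both the untreated and the treated MDCK-NBL2 group. With all libraries the calls were 5 up and 10 down. Without untreated replicate 1 they were 2 up and 14 down, without replicate 2 they were 6 up and 13 down, and without replicate 3 they were 6 up and 7 down. The share of all genes called moved too. It was 44.3% with all libraries, and 35.5%, 54.8% and 38% without untreated replicates 1, 2 and 3. Without treated replicate 1 the calls were 4 up and 7 down, and without treated replicate 2 or 3 they were 1 up and 9 down. In those fits 35.3%, 37.1% and 36.5% of all genes were called. The fit of the compared groups alone gave 0 up and 1 down, NDUFV1, where 4.48% of all genes were called. Scaling mattered as well. With library totals in place of TMM the median of all genes moved to -0.28 and that of the members to -0.30, with 1 member up (COX7A2L, 0.29, adjusted p = 0.0257) and 21 down, so that directions here are relative to the bulk of the genes. In that fit 49.1% of all genes were called.

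The same TGFb treatment in MDCK-II, where the labels give partial EMT, called fewer subunits. Against untreated MDCK-II at day 4, 0 of 46 rose and 4 fell (8.7%), against 21.1% of all genes tested by the same edgeR test (11.8% up and 9.27% down). The median log2 fold change was -0.04 over the members and -0.03 over all genes. Those that fell were NDUFV1 and NDUFS7 of complex I, SDHB of complex II and ATP5F1D of the ATP synthase.

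NDUFV1 had 103, 94.0 and 84.6 CPM in TGFb-treated MDCK-II, against 149, 141 and 142 CPM in untreated MDCK-II. The groups were apart, and it fell by 0.61 ± 0.10 (adjusted p = 0.000609), which held in all 8 fits without 1 library. NDUFS7 had 27.5, 25.1 and 23.4 CPM with TGFb and 37.1, 36.3 and 34.6 CPM without it (-0.51 ± 0.13, adjusted p = 0.0108). It missed the threshold only in the fit without treated replicate 3 (0.0526) of those 8. ATP5F1D had 88.3, 74.1 and 72.9 CPM with TGFb, against 91.9, 117 and 103 CPM without it, with no overlap (-0.41 ± 0.13, adjusted p = 0.0335). The ATP5F1D call was lost without treated replicate 2 (0.124) or 3 (0.120) and without untreated replicate 2 (0.147) or 3 (0.0725).

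SDHB had 91.4, 86.2 and 79.0 CPM in TGFb-treated MDCK-II and 111, 101 and 102 CPM in untreated MDCK-II. The treated libraries were all lower, at a log2 fold change of -0.29 ± 0.10 (adjusted p = 0.0467), but the call was lost when any 1 of the 6 libraries was left out (0.0618 to 0.175) and without untreated MDCK-NBL2 day 0 replicate 1 (0.0553). SDHA had 174, 157 and 160 CPM with TGFb, against 201, 190 and 199 CPM without it, and did not pass (-0.26, adjusted p = 0.0616). COX7A2L had 96.0, 114 and 106 CPM with TGFb and 75.7, 98.5 and 91.8 CPM without it, with overlapping groups and a change of 0.25 (adjusted p = 0.0792). It passed without untreated MDCK-II replicate 2 (0.0473). NDUFB11 changed by 0.32 (adjusted p = 0.0779) and NDUFB6, another membrane-arm subunit, by -0.27 (adjusted p = 0.166). With library totals in place of TMM the median of all genes in MDCK-II moved to -0.17 and the count to 0 up and 8 down, with 26% of all genes called. The fit of the compared groups alone called NDUFV1 and NDUFS7, and 21.2% of all genes. Without untreated MDCK-NBL2 day 4 replicate 2, which bears on the shared spread, the count was 1 up and 5 down, and without day 0 replicate 1 of that line it was 0 up and 3 down. The shares of all genes called were 30.7% and 20.7%, in that order.

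Whether TGFb moved a subunit differently in the lines was asked of the difference itself. For the effect in MDCK-NBL2 minus that in MDCK-II, 0 of 46 members passed in either direction, against 5.7% of all genes tested by edgeR's quasi-likelihood test (2.52% up and 3.18% down). In all, 2 members had an unadjusted p under 0.05, and DESeq2 called 1 member and 9.4% of all genes. NDUFS8 had the smallest p, with a difference of -0.44 ± 0.14 (adjusted p = 0.0594), from the fall in MDCK-NBL2 above and 49.3, 49.1 and 51.1 CPM with TGFb, against 49.7, 47.5 and 39.6 CPM without it, in MDCK-II. NDUFV1 differed by -0.15 ± 0.15 (adjusted p = 0.608), SDHA by -0.25 (adjusted p = 0.292), COX7A2L by 0.29 (adjusted p = 0.231), NDUFA2 by 0.37 (adjusted p = 0.476), COX4I1 by -0.07 (adjusted p = 0.749) and COX8A by -0.03 (adjusted p = 0.958). Values this far from the threshold do not show that the lines responded alike. Without untreated MDCK-NBL2 day 4 replicate 2, 3 members passed on the lower side, among them NDUFS8 (-0.46, adjusted p = 0.0281) and SDHA (-0.36, adjusted p = 0.0410), where 21.1% of all genes passed. NDUFS8 also passed without untreated MDCK-II replicate 1 (0.0344).

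**Figure D3:**
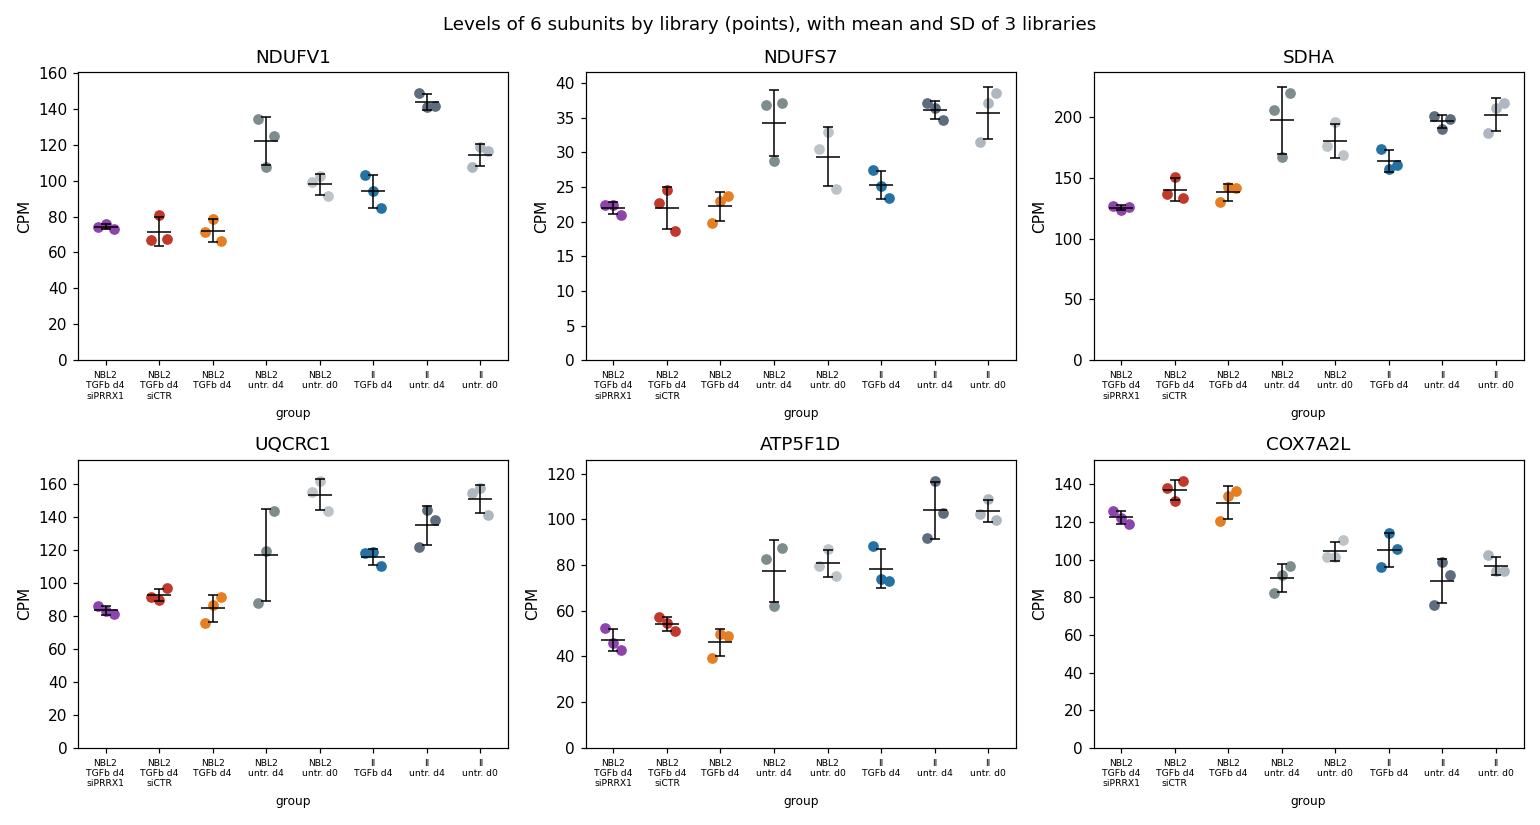
CPM per library of NDUFV1, NDUFS7, SDHA, UQCRC1, ATP5F1D and COX7A2L in the 8 groups, with bars for the group mean and SD. In NDUFV1 the treated libraries of both lines (66.3 to 103 CPM) lie below the untreated day 4 libraries (108 to 149 CPM), and COX7A2L is at 119 to 142 CPM in all treated MDCK-NBL2 groups.

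Further comparisons, chosen after seeing the data, set the treated cells against other untreated or treated libraries. They share libraries with the results above. Against day 0, 5 members rose and 16 fell in TGFb-treated MDCK-NBL2, where 58.2% of all genes were called (31.2% up and 27.1% down), and 1 rose and 9 fell in TGFb-treated MDCK-II, where 36.2% were called (17.8% up and 18.4% down). SiCTR cells, which had TGFb as well, over untreated MDCK-NBL2 at day 4 gave 7 up and 8 down, with 44.9% of all genes called (21.4% up and 23.5% down). NDUFV1 changed by -0.44 (adjusted p = 0.00138) in treated MDCK-NBL2 over day 0, by -0.28 (0.0383) in treated MDCK-II over day 0 and by -0.77 (3.30e-05) in siCTR cells over untreated day 4. SDHA changed by -0.39, -0.30 and -0.49 in the same order, and ATP5F1D by -0.81, -0.40 and -0.51, all past the threshold. UQCRC1 changed by -0.86 in treated MDCK-NBL2 over day 0 and by -0.38 in treated MDCK-II over day 0. ATP5IF1, the inhibitor of ATP hydrolysis by the synthase, rose over day 0 by 0.54 (adjusted p = 0.000223) in treated MDCK-NBL2 and by 0.41 (adjusted p = 0.00571) in treated MDCK-II. COX7A2L rose by 0.60 (adjusted p = 0.000145) in siCTR cells over untreated day 4 and by 0.32 (adjusted p = 0.00963) in treated MDCK-NBL2 over day 0. SDHB did not pass over day 0 in treated MDCK-NBL2 (-0.15, adjusted p = 0.214) or MDCK-II (-0.12, adjusted p = 0.373). Nor did NDUFA8 (0.29, adjusted p = 0.169) and ATP5MC1 (0.24, adjusted p = 0.379) in treated MDCK-NBL2. The other calls named above for TGFb over untreated day 4 passed over day 0 in the same direction. In siCTR cells over untreated day 4, SDHB, NDUFA13, NDUFA10 and NDUFS8 did not pass (adjusted p = 0.0551 to 0.111).

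**Figure D4:**
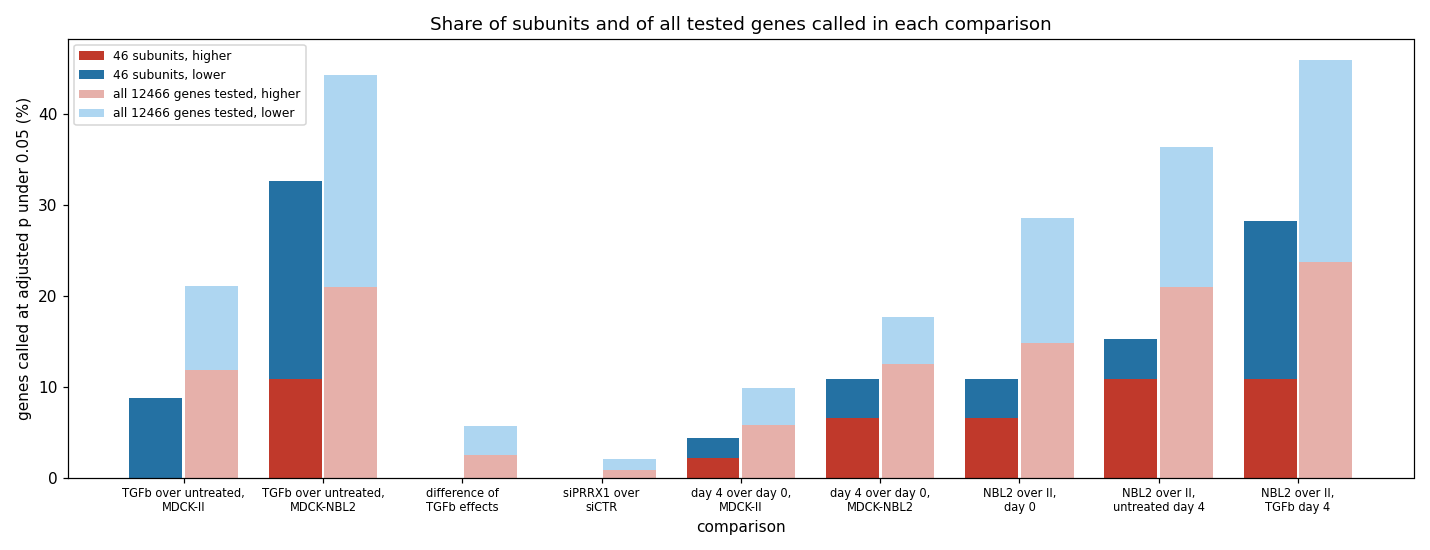
Percent of the 46 tested subunits and of all 12466 genes called at an adjusted p under 0.05 in each of the 9 comparisons, with bars split into higher and lower in the first-named group. For TGFb in MDCK-NBL2 the share was 32.6% of subunits and 44.3% of all genes, and in every one of the 9 comparisons the bar of the subunits is the shorter one.

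Other genes of the pathway were read from lists of known members in the same fit, where 44.3% of all genes were called in MDCK-NBL2 and 21.1% in MDCK-II. The 13 mitochondrially encoded subunits gave 0 calls with TGFb in either line, with medians of 0.08 in MDCK-NBL2 and 0.07 in MDCK-II. Of 45 assembly factors, 3 rose and 7 fell in MDCK-NBL2 (22.2%) and 0 rose and 3 fell in MDCK-II (6.67%), shares below those of all genes. BCS1L, which inserts the Rieske protein UQCRFS1 into complex III, fell by 0.87 (adjusted p = 0.000877) in MDCK-NBL2 and by 0.75 (adjusted p = 0.00558) in MDCK-II. COA7, a factor for complex IV, fell by 1.15 in MDCK-NBL2 (adjusted p = 0.000801), and FOXRED1, needed for complex I, by 1.02 (adjusted p = 0.00287). COX15 (0.65), SDHAF3 (0.64) and COX18 (0.55), which serve complexes IV, II and IV, rose there. In MDCK-II the other factors that fell were NDUFAF1 (-0.52, adjusted p = 0.0102) and COX10 (-0.52, adjusted p = 0.0298), which serve complexes I and IV.

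Of 18 genes of electron carriers and coenzyme Q synthesis, 0 rose and 7 fell in MDCK-NBL2 (38.9%) and 0 rose and 4 fell in MDCK-II (22.2%). DHODH, which links pyrimidine synthesis to ubiquinone, had 3.45, 5.85 and 3.31 CPM in TGFb-treated MDCK-NBL2, against 16, 7.02 and 27.1 CPM in untreated cells (-1.94, adjusted p = 0.000458), and changed by -0.98 (adjusted p = 0.0381) in MDCK-II. Of 16 tricarboxylic acid cycle genes, 1 rose and 7 fell in MDCK-NBL2 (50%) and 1 rose and 1 fell in MDCK-II (12.5%), with DLD, a shared subunit of the alpha-keto acid dehydrogenases, at -0.43 (adjusted p = 0.00175) and -0.45 (adjusted p = 0.00350). Of 15 fatty acid oxidation genes, 4 rose and 4 fell in MDCK-NBL2 (53.3%), among them ECI1 (1.15) and ACADS (-1.55), and 1 rose and 0 fell in MDCK-II (6.67%), ECI1 at 1.24.

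Among 10 genes for carriers, antioxidants and uncoupling, the ADP/ATP carriers moved in opposite directions in MDCK-NBL2. SLC25A4 had 87.3, 103 and 111 CPM with TGFb, against 30.3, 63.5 and 46.7 CPM without it (1.10, adjusted p = 0.000179), and SLC25A6 had 227, 276 and 279 CPM, against 547, 346 and 524 CPM without it (-0.86, adjusted p = 0.000212). Neither pair of groups overlapped. UCP2, a carrier of the uncoupling protein family, fell by 1.48 (adjusted p = 0.000298). In MDCK-II, SLC25A4 rose by 0.53 (adjusted p = 0.0497). The list counts were 2 up and 2 down in MDCK-NBL2 (40%) and 1 up and 0 down in MDCK-II (10%).

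Of 23 regulators of mitochondrial biogenesis, 3 rose and 8 fell in MDCK-NBL2 (47.8%) and 1 rose and 5 fell in MDCK-II (26.1%). TFAM, which packs and transcribes mitochondrial DNA, fell by 0.86 (adjusted p = 0.00140) and the transcription factor YY1 by 0.58 (adjusted p = 0.000985) in MDCK-NBL2, where PRKAA1, a catalytic subunit of AMP-activated kinase, rose by 0.53 (adjusted p = 0.000284). Of 21 import and chaperone genes, 0 rose and 9 fell in MDCK-NBL2 (42.9%) and 0 rose and 2 fell in MDCK-II (9.52%). The matrix protease LONP1 fell by 0.64 (adjusted p = 0.00253) in MDCK-NBL2 and by 1.02 (adjusted p = 0.000269) in MDCK-II. Of 59 mitochondrial ribosomal proteins, 1 rose and 22 fell in MDCK-NBL2 (39%, median -0.34) and 0 rose and 7 fell in MDCK-II (11.9%, median -0.21). Of 55 cytosolic ribosomal proteins, 0 rose and 53 fell in MDCK-NBL2 (96.4%, median -0.61) and 0 rose and 7 fell in MDCK-II (12.7%, median -0.19), while the medians of the respiratory subunits were -0.06 and -0.04.

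Knockdown of PRRX1 in TGFb-treated MDCK-NBL2 was checked on its target first. PRRX1 had 1.11, 0.339 and 0 CPM in siPRRX1 cells, against 33.9, 7.35 and 3.88 CPM in siCTR cells, with no overlap (log2 fold change -4.64 ± 1.17, adjusted p = 0.0435). CDH1, the junction protein E-cadherin, rose by 0.68 (adjusted p = 0.0327). Of the subunits, 0 of 46 passed in either direction by edgeR's quasi-likelihood test, against 2% of all genes (0.81% up and 1.19% down). DESeq2 also called 0 members, with 3.68% of all genes called, and 5 members had an unadjusted p under 0.05. The fit of the siPRRX1 and siCTR libraries alone called 10.3% of all genes and 2 members, both lower, ATP5MC1 (adjusted p = 0.0269) and NDUFA8 (-0.32, adjusted p = 0.0449). The log2 fold change was negative for 34 members and positive for 12, with a median of -0.12 over the members and 0 over all genes. With library totals in place of TMM the medians were 0.01 and 0.13.

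NDUFS4, an accessory subunit that stabilises the NADH end of complex I, had the smallest p. It had 14.8, 14.6 and 15.4 CPM in siPRRX1 cells, against 18.5, 22.4 and 18.4 CPM in siCTR cells, and the groups did not overlap (-0.40 ± 0.12, adjusted p = 0.110). COX5A, a matrix-side subunit of complex IV, had 70.3, 70.0 and 74.9 CPM in siPRRX1 cells and 81.5, 89.8 and 90.1 CPM in siCTR cells, also apart (-0.28, adjusted p = 0.234). ATP5MC1 had 94.2, 105 and 91.0 CPM in siPRRX1 cells, against 128, 131 and 119 CPM in siCTR cells (-0.38, adjusted p = 0.470). Of the members that moved most with TGFb, NDUFV1 had 73.9, 75.9 and 73.2 CPM in siPRRX1 cells, against 66.8, 81.0 and 67.3 CPM in siCTR cells. COX7A2L had 126, 122 and 119 CPM in siPRRX1 cells, against 138, 131 and 142 CPM in siCTR cells (-0.16, adjusted p = 0.491). COX4I1 and COX8A changed by -0.03 (adjusted p = 0.925) and 0.05 (adjusted p = 0.930).

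On the other lists, knockdown called 0 of the 13 mitochondrially encoded subunits. PRKAA2, the other catalytic subunit of AMP-activated kinase, rose by 0.81 (adjusted p = 0.0451), and MRPL44, a mitochondrial ribosomal protein, rose by 0.55 (adjusted p = 0.0406).

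Time in culture without TGFb moved few subunits. In MDCK-II at day 4 over day 0, 1 rose and 1 fell, against 9.81% of all genes called by the same edgeR test (5.76% up and 4.05% down). NDUFV3, an accessory subunit beside NDUFV1 and NDUFV2, had 35.8, 41.1 and 42.1 CPM at day 4, against 54.7, 57.7 and 55.7 CPM at day 0 (-0.50 ± 0.09, adjusted p = 0.00228). This call held in all 8 fits without 1 library. NDUFV1 rose at day 4, to 149, 141 and 142 CPM against 108, 119 and 117 CPM at day 0 (0.33 ± 0.10, adjusted p = 0.0452). That call was lost in 7 of those 8 fits (0.0557 to 0.169), each of the 6 libraries compared and untreated MDCK-NBL2 day 0 replicate 1 among those left out.

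In MDCK-NBL2 at day 4 over day 0, 3 rose and 2 fell, against 17.7% of all genes called by edgeR (12.4% up and 5.26% down). NDUFA4L2, described after these, is 1 of the 3. The count was 0 up and 1 down without day 0 replicate 1 and 2 up and 1 down without day 4 replicate 2, and the fit of the compared groups alone called 0 members and 0 genes in all. Of all genes, 10.1% were called without day 0 replicate 1 and 14.6% without day 4 replicate 2. NDUFV3 had 43.5, 42.0 and 48.6 CPM at day 4, against 55.0, 61.8 and 56.8 CPM at day 0 (-0.37 ± 0.09, adjusted p = 0.0119), and missed the threshold without day 0 replicate 2 (0.0636). NDUFV1 had 134, 108 and 125 CPM at day 4, against 99.5, 103 and 91.7 CPM at day 0 (0.32 ± 0.10, adjusted p = 0.0385), and missed it without day 4 replicate 1 (0.153) or any day 0 library (0.0742 to 0.133). In both lines, then, the day 4 libraries of NDUFV3 all lay below and those of NDUFV1 all lay above their day 0 libraries. UQCRC1 fell by 0.40 (adjusted p = 0.0377), with 87.8, 119 and 143 CPM at day 4 and 155, 162 and 144 CPM at day 0, but its call was lost without day 4 replicates 1 or 2 or any day 0 library (0.0567 to 0.167). ATP5IF1 rose by 0.30 (adjusted p = 0.0470), to 80.1, 78.0 and 62.3 CPM at day 4, against 62.9, 56.3 and 59.9 CPM at day 0, with overlapping groups, and lost its call under the same 5 omissions (0.0665 to 0.169). Without day 4 replicate 3, the highest library of its group for the summed subunits, 3 members rose and 10 fell. In that fit 5324 genes were called in all, 41.7% of those tested. Of the mitochondrially encoded subunits, MT-ATP6 (0.65, adjusted p = 0.0310) and MT-ATP8 (0.64, adjusted p = 0.0267) rose.

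NDUFA4L2, which is known in human cells as a target of the hypoxia factor HIF1, was the subunit seen in 1 line. It had 0 counts in each of the 9 MDCK-II libraries. In MDCK-NBL2 it had 7, 5 and 3 counts with siPRRX1, 7, 12 and 7 with siCTR, 4, 3 and 0 with TGFb alone, 109, 59 and 0 untreated at day 4 and 1, 4 and 1 at day 0. The untreated day 4 group was therefore split, with replicates 1 and 2 at 4.43 and 2.18 CPM and replicate 3 at 0. It had 10 counts or more in 3 libraries, of which 2 are in that group, so the level there helped to choose it as a member, and its values in comparisons with that group are a description. At day 4 the untreated level was at least 48.9-fold higher in MDCK-NBL2 than in MDCK-II, with the MDCK-II group set at a floor of 3 counts over the group. The ratio of its summed counts, scaled by library size, at day 4 over day 0 in MDCK-NBL2 was 24.2, with a 95% counting interval of 10.9 to 66.8 that covers counting error only. With TGFb its log2 fold change in MDCK-NBL2 was -2.69 ± 1.10, against the same group, and with PRRX1 knockdown it was -1.15 (adjusted p = 0.702).

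The lines themselves were compared in 3 states. MDCK-NBL2 over MDCK-II gave 3 members up and 2 down at day 0, against 28.5% of all genes called by the same edgeR test (14.8% up and 13.8% down). Untreated at day 4 it gave 5 up, NDUFA4L2 among them, and 2 down, against 36.3% (21% up and 15.3% down). With TGFb it gave 5 up and 8 down, against 45.9% (23.7% up and 22.3% down). The members' shares were below those of all genes in each state. The median log2 fold changes of the members were -0.04, -0.06 and -0.09, and those of all genes were -0.04, 0.02 and -0.01. The day 4 comparison shares its libraries with the TGFb results above. Without untreated MDCK-NBL2 day 0 replicate 1 the counts were 3 up and 1 down at day 0, 5 up and 1 down at day 4 and 5 up and 4 down with TGFb, and without day 4 replicate 2 they were 6 up and 1 down at day 4 and 6 up and 8 down with TGFb. The shares of all genes called were 24.6%, 35.7% and 45.4% without the first library, and 34.1% and 50.8% without the second. The fit of the compared groups alone called 0 members at day 4, where it called 10.4% of all genes.

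SDHC, a membrane anchor of complex II, was higher in MDCK-NBL2. It had 39.4, 37.4 and 31.8 CPM in MDCK-NBL2 at day 0, against 23.0, 25.1 and 24.0 CPM in MDCK-II (0.59 ± 0.16, adjusted p = 0.00802). With TGFb it had 35.5, 36.7 and 34.0 CPM in MDCK-NBL2, against 30.1, 24.1 and 19.1 CPM in MDCK-II (0.53, adjusted p = 0.0113), and missed the threshold without MDCK-II replicate 3 (0.0697). Untreated at day 4 its change was 0.45 (adjusted p = 0.0300), which was lost without replicate 2 or 3 of MDCK-II (0.113 and 0.156) or replicate 1 or 3 of MDCK-NBL2 (0.0557 and 0.0582). UQCRQ, a small subunit of complex III, had 15.6, 23.1 and 20.7 CPM in untreated MDCK-NBL2 at day 4, against 10.4, 14.1 and 9.35 CPM in MDCK-II (0.79 ± 0.15, adjusted p = 0.000437), and this call held in all 7 fits without 1 library, though not in the fit of the compared groups alone (0.101). With TGFb UQCRQ was higher by 0.44 (adjusted p = 0.0293), lost without replicate 1 or 3 of MDCK-II or replicate 2 or 3 of MDCK-NBL2 (0.0529 to 0.112). NDUFB9, an accessory subunit of complex I, differed by 0.26 (adjusted p = 0.0325), 0.29 (0.0134) and 0.26 (0.0217) at day 0, untreated at day 4 and with TGFb, and 4 of 7, 1 of 7 and 3 of 8 omissions ended its call.

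ATP5F1D was lower in MDCK-NBL2. At day 0 it had 79.8, 87.2 and 75.3 CPM in MDCK-NBL2, against 102, 109 and 99.6 CPM in MDCK-II (-0.36 ± 0.13, adjusted p = 0.0451), a call lost without any 1 of these 6 libraries (0.0535 to 0.156) and in the fit with the replicate number as a block (0.0541). Untreated at day 4 it changed by -0.43 (adjusted p = 0.0144) and was lost without replicate 2 of MDCK-II (0.0871) or of MDCK-NBL2 (0.0821). With TGFb it had 39.5, 49.9 and 49.0 CPM in MDCK-NBL2, against 88.3, 74.1 and 72.9 CPM in MDCK-II, well apart (-0.76 ± 0.13, adjusted p = 0.000149), and that call held in all 8 fits without 1 library. NDUFS4 was lower in MDCK-NBL2 at day 0, with 17.5, 16.4 and 19.9 CPM against 23.0, 25.5 and 23.5 CPM in MDCK-II (-0.43, adjusted p = 0.0114), which was lost without replicate 2 of either line (0.0584 without that of MDCK-II and 0.0692 without that of MDCK-NBL2). At day 4 it changed by -0.32 (adjusted p = 0.0469), and 5 of 7 omissions ended that call, with an adjusted p of up to 0.213.

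A further 8 members passed between the lines with TGFb and did not pass at day 0 or untreated at day 4. The test of the TGFb effect in MDCK-NBL2 minus that in MDCK-II, where 0 members passed, is also the test of whether the line difference with TGFb differs from that without it at day 4. NDUFA12, an accessory subunit of complex I, had 37.0, 31.7 and 31.7 CPM in TGFb-treated MDCK-NBL2, against 48.6, 46.7 and 53.7 CPM in TGFb-treated MDCK-II (-0.57 ± 0.16, adjusted p = 0.00734). UQCRC1 had 75.8, 86.4 and 91.5 CPM in MDCK-NBL2, against 118, 118 and 110 CPM in MDCK-II (-0.45, adjusted p = 0.00743). NDUFV1 changed by -0.38 (adjusted p = 0.00570), and these 3 calls held in all 8 fits without 1 library. COX7A2L was higher in MDCK-NBL2 by 0.31 (adjusted p = 0.0165), lost without MDCK-II replicate 1 (0.120) or MDCK-NBL2 replicate 2 (0.0551) or 3 (0.0642). ATP5F1A, an alpha subunit of the catalytic head, ATP5PB, of the peripheral stalk, NDUFS8 and SDHA were lower in MDCK-NBL2, with log2 fold changes of -0.31, -0.33, -0.24 and -0.25 and adjusted p of 0.0433, 0.0463, 0.0491 and 0.0469. Of 8 omissions, 7 ended the call of ATP5F1A, 6 that of ATP5PB, 7 that of NDUFS8 and 7 that of SDHA. With library totals in place of TMM the count with TGFb was 0 up and 19 down, and with the library number series as a term 4 were down. Of all genes, 49.3% and 43.5% were called in these fits. With library totals the median of all genes moved to -0.21, so that the members named as higher were so relative to the bulk of the genes.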

How the data were processed

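RNA sequencing libraries (stranded mRNA, per the labels' protocols) of 8 groups of 3 were read from 1 table of whole-number counts per gene that the authors deposited. The submitters' processing notes name STAR 2.5.3a, RSEM 1.3.0, FastQC and the dog build CanFam3.1; the sources used here do not give the role of each, the annotation release or the strand setting. Groups came from the labels. The members and lists were chosen with earlier results of these data known.

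All 24 libraries were fitted together with 1 mean per group in edgeR 4.0.16 (limma 3.58.1, R 4.3.3): filterByExpr (min.count 10, min.total.count 15), TMM scaling, a prior count of 0.125, the quasi-likelihood F test with 16 residual degrees of freedom and Benjamini-Hochberg adjustment over 12466 genes. The common biological coefficient of variation was 21.9%. CPM used TMM-scaled library sizes, and SE is the log2 fold change divided by the square root of F. The fit was tried on counts simulated from its own spread, with known changes in some genes. That trial does not bear on libraries that stood apart from their group or on changes of other sizes. Depth was 6134929 to 27567296 counts.

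Per comparison and complex, up to 3 called members in each direction with the smallest adjusted p were named, and for TGFb and the knockdown also the 3 largest changes and each isoform; others named were chosen after their values were seen. Up to 3 called genes per other list and direction could be named. Same-numbered libraries deviated together (every pair's correlation over 0.1) for TGFb in MDCK-II (0.47, 0.29 and 0.37), PRRX1 knockdown (0.40, 0.25 and 0.21) and the lines at day 0 (0.13, 0.14 and 0.25), which comes from the data and not from the labels. Library numbers in the titles fall in AL26 and AL58 series, and what a series stands for is not stated. Alternatives were DESeq2 1.42.0, other scaling, no filter, a replicate block, a series term, fits of the compared groups alone and leaving out libraries. Of the members, 1 is counted but not reported here by name.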

Additional observations from a re-analysis of the deposited data

Results flagged for a closer look

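The test of the difference itself (effect in MDCK-NBL2 minus effect in MDCK-II, edgeR's quasi-likelihood test) passed 5.7% of all genes tested. No respiratory subunit differed past the threshold between the TGFb effects of the lines, and 5 genes of the other mitochondrial lists did. Of 45 assembly factors, 1 passed on the higher and 1 on the lower side (4.44%), and of 23 regulators likewise 1 and 1 (8.7%). Of 16 tricarboxylic acid cycle genes, 1 passed on the lower side (6.25%). On the lists of 18 electron carrier and coenzyme Q genes, 15 fatty acid oxidation genes and 10 carriers, 0 passed. The same held for 21 import genes, 59 mitochondrial ribosomal proteins and 13 mitochondrially encoded subunits. Of the remaining lists, 2 cytosolic ribosomal proteins and 1 kidney epithelium marker passed on the lower side. ATPAF1, an assembly factor for the ATP synthase, differed by -0.71 (adjusted p = 0.0481). CREB1, a transcription factor of the regulator list, differed by -0.91 (adjusted p = 0.0292). IDH3G, a subunit of the NAD-linked isocitrate dehydrogenase, differed by -0.65 (adjusted p = 0.0228). PRKAA1, of AMP-activated kinase, differed by 0.50 (adjusted p = 0.0362), and SDHAF3, an assembly factor for complex II, by 0.91 (adjusted p = 0.0236).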

How the results depend on the processing

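Counts, up and down, are of the subunits tested in each fit. That was 46, except 47 without a count filter and 45 or 46 in fits of the compared groups alone. With library totals without TMM the counts were 8 down for TGFb in MDCK-II, 1 up and 21 down for TGFb in MDCK-NBL2, 0 up at day 4 over day 0 in MDCK-II, 1 up in MDCK-NBL2, and for MDCK-NBL2 over MDCK-II 1 down at day 0, 3 up and 5 down at day 4 and 0 up and 19 down with TGFb. In the same order, 26%, 49.1%, 9.16%, 17.7%, 27.5%, 36.8% and 49.3% of all genes were called. Without a count filter the counts were 2 down (TGFb in MDCK-II), 1 up (TGFb in MDCK-NBL2), 0 up (day, MDCK-II), 1 up and 1 down (day, MDCK-NBL2), and between lines 1 down at day 0, 1 down at day 4 and 1 up and 4 down with TGFb. The shares of all genes were then 11%, 26%, 4.45%, 8.88%, 16.4%, 21.9% and 27.4%, in that order. Fits of the compared groups alone gave 2 down (TGFb in MDCK-II), 0 up and 1 down (TGFb in MDCK-NBL2), 2 down (knockdown), 0 up and 0 down (day, MDCK-NBL2), 7 up (lines, day 0) and 0 up and 0 down (lines, day 4). They called 21.2%, 4.48%, 10.3%, 0%, 42.6% and 10.4% of all genes, in that order. The DESeq2 Wald test gave 1 up for TGFb in MDCK-II and 1 down for the difference, with 23.6% and 9.4% of all genes called. DESeq2 size factors gave 1 down for the lines at day 0, with 28.2% of all genes called. A library series term gave 0 up (day, MDCK-II) and 4 down (lines with TGFb), where 9.17% and 43.5% of all genes were called. With day 0 as reference, chosen after seeing the data, TGFb gave 1 up and 9 down in MDCK-II and 16 down in MDCK-NBL2. The shares of all genes called there were 36.2% and 58.2%. Where the numbers pair the libraries, the replicate block gave 0 up and 4 down for TGFb in MDCK-II and 1 down for the lines at day 0. Where the numbers do not pair them, it gave 6 up and 10 down for TGFb in MDCK-NBL2. In these fits 22.6%, 29.8% and 46.1% of all genes were called, in that order. The block changed no other paired call. Leaving out 1 library gave, up and down, 0 to 1 and 1 to 5 (TGFb in MDCK-II), 1 to 6 and 7 to 14 (TGFb in MDCK-NBL2), 0 to 1 and 0 to 3 (difference), 0 and 0 (knockdown), 0 to 1 and 1 to 2 (day, MDCK-II), 0 to 3 and 0 to 10 (day, MDCK-NBL2), 2 to 3 and 0 to 2 (lines, day 0), 3 to 8 and 0 to 14 (lines, day 4) and 1 to 6 and 4 to 8 (lines with TGFb). Of all genes, 9.99% to 30.7% were then called for TGFb in MDCK-II, 35.3% to 54.8% in MDCK-NBL2 and 2.44% to 21.1% for the difference. For the knockdown the share was 0.424% to 5.21%. For day 4 over day 0 it was 4.05% to 16.5% in MDCK-II and 5.8% to 41.7% in MDCK-NBL2. Between the lines the shares were 21.4% to 34% at day 0, 29.4% to 47% at day 4 and 37.2% to 50.8% with TGFb. COX4I1 and COX8A changed sign under some alternatives. COX4I1 gave -0.075 for TGFb in MDCK-II and 0.10 for the knockdown with library totals; for TGFb in MDCK-NBL2 it gave -0.25 and passed (library totals, adjusted p = 0.0156), 0.0067 (size factors), 0.011 (Wald test), 0.022 (series term) and -0.043 to 0.045 (1 library left out), and for the knockdown -0.063 to 0.0086 with 1 left out. COX8A gave -0.075 for TGFb in MDCK-NBL2 with library totals, 0.025 (series term) and -0.18 to 0.061 (1 left out) for the difference, and -0.076 to 0.12 for the knockdown with 1 left out. Over all genes, 2626 were called for TGFb in MDCK-II (1257 to 3862 without 1 library), 5525 in MDCK-NBL2 (510 from the compared groups alone), 711 for the difference (1172 by Wald, 48 alone, 311 to 2653 without 1 library), 249 for the knockdown (459, 1159 and 54 to 655, and 163 without a filter), 1223 and 2206 for day 4 over day 0 in MDCK-II and MDCK-NBL2 (509 to 2075 and 729 to 5324 without 1 library; 0 alone in MDCK-NBL2) and 4527 for the lines at day 4 (1267 alone). The causes were not tested, beyond that fits of the compared groups alone have fewer libraries.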
